A study of Mus musculus with 6 samples.

Results

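Type 1 conventional dendritic cells (cDC1) are antigen-presenting cells known for cross-presentation, the display of peptides from engulfed material on MHC class I to CD8 T cells. The 10 genes described here are Xcr1, Clec9a, Gm43914, Irf8, Batf3, Cadm1, Snx22, Gcsam, Rab7b and Ifi205, taken by gene name from the 17832 genes of the table. They were selected on earlier results of these same libraries, in which several of them stood high in CD8 against CD4, so their values in that contrast are a description. How many passed the tests run over all genes is stated once, beside the share of all genes that did, and supports nothing. All 10 were in the table and all 10 reached 10 normalised reads in at least 3 libraries, but 5 of them would not have done so on the CD4 libraries alone.

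The libraries were made from cells sorted as CD4+ or CD8+ from the spleens of C57BL/6 mice that all carried osmotic pumps delivering angiotensin II, a hormone used to model hypertension. The labels number the 3 CD4 libraries 385, 393 and 395 and the 3 CD8 libraries 389, 395 and 387. The number 395 occurs in both groups, and whether a number marks a mouse is not stated. Libraries from untreated mice were not analysed here, so nothing below bears on the effect of angiotensin II. Ages of the mice and any further sort gates are not given in the labels. A splenic cDC1 in the mouse carries CD8 alpha on its surface, as a CD8 T cell does, whereas many type 2 conventional dendritic cells (cDC2) of the spleen carry CD4.

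The libraries held between 10264246 and 14628599 reads, recovered from the deposited values, and values below are normalised read counts. Each library had the coreceptor of its label: Cd8a ran from 3871 to 10001 in CD8 and from 7.45 to 36.8 in CD4, and Cd4 from 4065 to 6313 in CD4 and from 38.9 to 162.8 in CD8. Transcripts of other spleen cells were present in every library and varied between them. The 12 macrophage markers summed to between 5827 in CD4 395 and 32222 in CD4 393, with CD8 389 second lowest at 7025. The 8 erythroid markers summed to between 23829 in CD4 393 and 60501 in CD8 389. The 14 T cell receptor genes summed to between 12688 in CD8 389 and 54817 in CD4 393. In such bulk samples a smaller number of cells of a type and less RNA per cell cannot be told apart. Nothing states that the libraries came from separate mice, so the tests measure the spread between libraries, which may be partly technical.

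Of the 10 genes, Xcr1 separated the groups most widely. Xcr1, the receptor for the chemokine Xcl1 that CD8 T cells and natural killer cells release, had 512.6, 491.6 and 456.5 normalised reads in CD8 389, 395 and 387. It had 16.3, 14.5 and 7.45 in CD4 385, 393 and 395. The lowest CD8 library thus stood 28.1-fold above the highest CD4 library, and the CD8 libraries differed among themselves by only 1.12-fold. The means were 487 ± 28.4 (SD, n = 3) in CD8 and 12.7 ± 4.66 in CD4, a log2 fold change of 5.21 (SE 0.33) on the scale of log2(value + 1).

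Clec9a, also called DNGR-1, detects actin filaments exposed by dead cells and directs their antigens toward cross-presentation. It had 636, 833 and 818 in CD8 389, 395 and 387 and 74.5, 98.1 and 14.9 in CD4 385, 393 and 395. The groups did not overlap, and CD4 395 held 5.79-fold less than the mean of the other CD4 libraries. The log2 fold change was 3.95 (SE 0.63), from means of 762 ± 110 (SD, n = 3) and 62.5 ± 42.9.

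Gm43914 is annotated in GENCODE release M21 as a transcript that lies within an intron of Clec9a on the same strand and shares 0 exon bases with it. It had 94.4, 43.0 and 94.0 in CD8 389, 395 and 387 and at most 3.34 in CD4, where it rested on 7 reads in all. The ratio of CD8 to CD4 reads was 34.4, with an exact binomial 95% interval of 16.4 to 86.4 that covers counting error only. Its level was 14.8%, 5.16% and 11.5% of that of Clec9a in CD8 389, 395 and 387, and 3.45%, 3.41% and 7.14% in CD4 385, 393 and 395, so it did not follow Clec9a in a fixed proportion. Reads from unspliced Clec9a transcripts and reads from a separate Gm43914 transcript cannot be told apart here. Clec9a itself shares 184 exon bases with Clec1b on the same strand in that annotation. Clec1b, a lectin receptor of platelets, had 80.9 ± 39.0 (SD, n = 3) in CD8 and 96.0 ± 58.2 in CD4.

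The sequences around the annotated start sites are shown for the receptor genes Xcr1 and Clec9a and for Batf3, because they differ in base composition. Any relation of base composition to the levels of these genes was not tested. RefSeq (GRCm38.p6, an older build than the GRCm39 named for these data) has windows of 250 bases before to 50 after a start for 7 of the 10 genes. The windows of Xcr1 (chr9:123861980-123862279, minus strand), Clec9a (chr6:129408612-129408911, plus strand) and Batf3 (chr1:191098164-191098463, plus strand) are shown 5′ to 3′, and capitals mark each CG pair.
Xcr1: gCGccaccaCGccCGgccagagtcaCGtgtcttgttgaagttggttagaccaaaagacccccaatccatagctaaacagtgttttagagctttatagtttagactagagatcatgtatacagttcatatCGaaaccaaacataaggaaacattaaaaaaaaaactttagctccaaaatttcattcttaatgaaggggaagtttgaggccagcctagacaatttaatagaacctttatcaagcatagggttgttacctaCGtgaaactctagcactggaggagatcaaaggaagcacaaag
Clec9a: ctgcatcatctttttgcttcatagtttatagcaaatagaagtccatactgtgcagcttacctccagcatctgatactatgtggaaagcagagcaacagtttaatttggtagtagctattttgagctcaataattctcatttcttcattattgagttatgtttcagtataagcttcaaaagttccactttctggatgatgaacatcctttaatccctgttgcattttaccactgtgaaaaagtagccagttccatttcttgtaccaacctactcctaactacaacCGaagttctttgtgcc
Batf3: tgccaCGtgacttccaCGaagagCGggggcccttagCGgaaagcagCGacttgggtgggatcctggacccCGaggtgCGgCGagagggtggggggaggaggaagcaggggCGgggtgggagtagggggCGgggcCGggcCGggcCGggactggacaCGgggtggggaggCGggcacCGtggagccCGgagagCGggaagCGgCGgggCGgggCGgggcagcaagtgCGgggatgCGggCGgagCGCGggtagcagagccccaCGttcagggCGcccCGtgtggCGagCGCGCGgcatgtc
The Xcr1 window is 40.0% G or C with 6 CG pairs, the Clec9a window 37.0% with 1, and the Batf3 window 75.7% with 34. The median of all 32851 windows was 52.7% and 7 pairs. Of the other genes, Ifi205 had 43.7% and 1 pair, Gcsam 53.0% and 4, Snx22 63.0% and 66.0% and 14 and 18 pairs in its pair of windows, and Irf8 70.0% and 38 pairs in the first of its windows and 54.7% and 8 in the second.

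**Figure D1:**
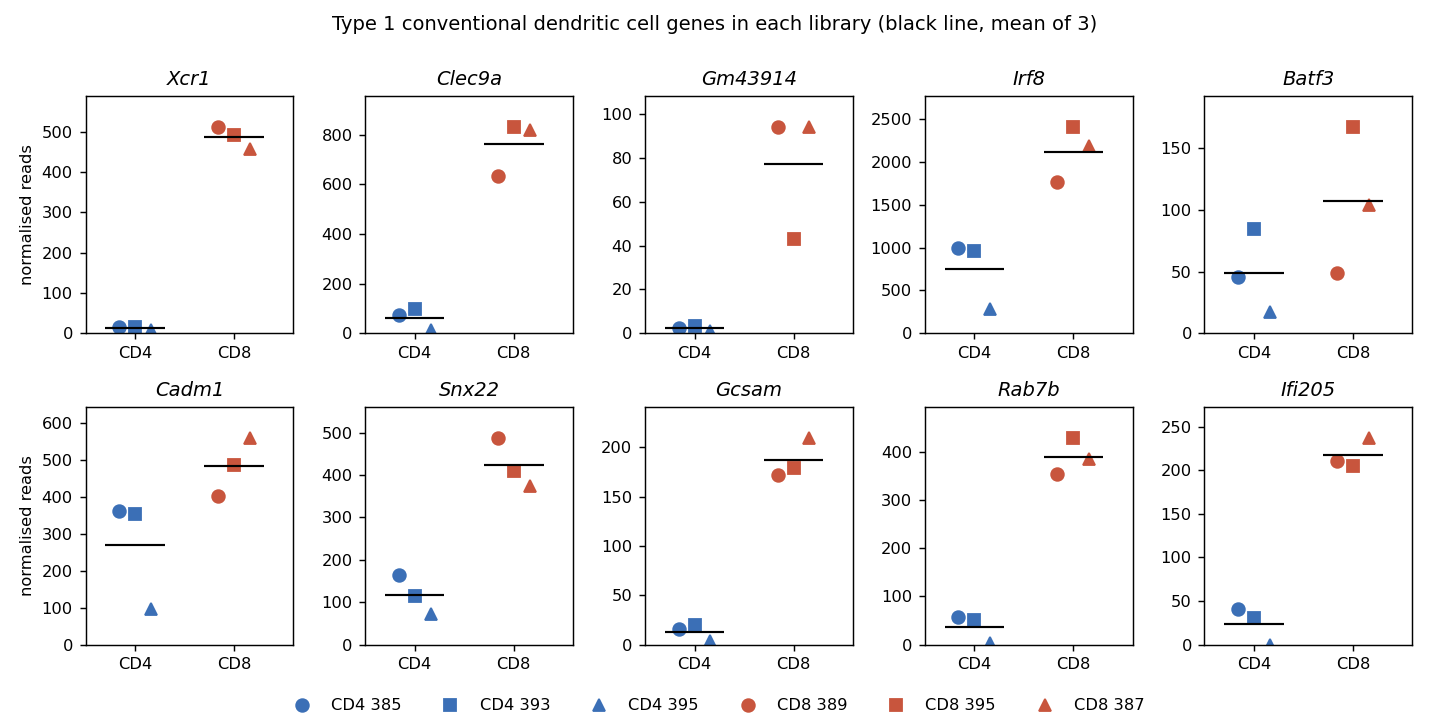
Normalised reads (vertical axes, from 0) of the 10 genes in each of the 3 CD4 and 3 CD8 libraries, with black lines at the group means. Batf3 is the gene whose groups overlap, and CD4 395 is the lowest library in every panel.

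The transcription factors of the lineage were present in both groups and differed less. Irf8, which cDC1 need for their development and which B cells, macrophages and plasmacytoid dendritic cells also express, had 1764, 2411 and 2180 in CD8 389, 395 and 387. It had 997, 965 and 280 in CD4 385, 393 and 395, so that the groups were separated by 1.77-fold at their nearest. The log2 fold change was 1.70 (SE 0.47), from 2119 ± 328 (SD, n = 3) in CD8 and 747 ± 405 in CD4. Without CD4 395 it was 1.10.

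Batf3, the AP-1 family factor that partners IRF8 in cDC1 and without which these cells fail to form in mice, had 49.0, 167.3 and 104.0 in CD8 389, 395 and 387. In CD4 385, 393 and 395 it had 45.4, 84.7 and 17.0, and it alone of the 10 genes had overlapping groups, since CD8 389 stood below CD4 393. The log2 fold change was 1.21 (SE 0.65) with all libraries and 0.61 without CD4 395. CD8 389, the lowest of its group for Batf3, had the highest Xcr1 of all libraries. The ratio of Batf3 to Xcr1 was accordingly 0.0957 in CD8 389, 0.340 in CD8 395 and 0.228 in CD8 387.

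None of the related factors passed the test. Of 8 other members of the interferon regulatory factor family tested, 0 were called by limma at an adjusted p under 0.05, by edgeR or by DESeq2, 0 had an unadjusted limma p under 0.05, beside 5.82% of all genes tested in either direction, and 7 point estimates lay below 0. Irf4, the counterpart that cDC2 and activated lymphocytes use, had 441 ± 135 (SD, n = 3) in CD8 and 574 ± 173 in CD4. Of 7 tested genes among the BATF and AP-1 partners, 0 were called by any of these tools and 3 had an unadjusted p under 0.05, all with estimates below 0. Batf, which can stand in for Batf3 in some settings in mice, had 122 ± 57.7 in CD8 and 203 ± 54.6 in CD4. Junb, a partner of BATF factors, had 2480 ± 998 in CD8 and 5424 ± 1999 in CD4, with a log2 fold change of -1.14 (SE 0.37) and a limma adjusted p = 0.506.

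Cadm1, an adhesion molecule that binds Crtam on activated CD8 T cells, had the smallest difference. It had 402, 488 and 561 in CD8 389, 395 and 387 and 362, 354 and 96.8 in CD4 385, 393 and 395. The groups were separated by 1.11-fold at their nearest, and the log2 fold change of 1.04 (SE 0.49) became 0.42 without CD4 395. CD4 385 and 393 were therefore close to the CD8 libraries, and CD4 395 stood apart below them.

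The genes of membrane traffic among the 10 were Rab7b and Snx22. Rab7b, a small GTPase of transport from late endosomes to the Golgi, had 353, 429 and 384 in CD8 389, 395 and 387 and 57.4, 51.3 and 3.19 in CD4 385, 393 and 395. Its lowest CD8 library was 6.16-fold above its highest CD4 library. The CD4 395 value rests on 3 reads, and the log2 fold change was 4.05 (SE 0.93) with that library and 2.82 without it.

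Snx22, a sorting nexin with a phosphoinositide-binding PX domain, had 488, 409 and 375 in CD8 389, 395 and 387 and 164, 115 and 71.3 in CD4 385, 393 and 395, a log2 fold change of 1.92 (SE 0.32). The groups did not overlap, and CD8 389 was the highest library here, as for Xcr1. In GENCODE M21 Snx22 shares 825 exon bases with Ppib on the opposite strand, and the strand setting of the counting is not given in the sources used here. Ppib, an abundant peptidyl-prolyl isomerase of the endoplasmic reticulum, had 2948 ± 36.3 (SD, n = 3) in CD8 and 2673 ± 151 in CD4. Its groups did not overlap either, with CD8 higher. In the mean, CD8 stood 1.10-fold above CD4 for Ppib and 3.63-fold for Snx22, whose means were 424 and 117. The share of Ppib reads in the Snx22 counts was not measured.

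Gcsam encodes a signalling adaptor first known from germinal centre B cells. It had 172, 179 and 210 in CD8 389, 395 and 387 and 15.4, 20.1 and 3.19 in CD4 385, 393 and 395, a log2 fold change of 4.05 (SE 0.60). The groups were 8.58-fold apart at their nearest. Of the B cell markers, 0 of 9 tested were called by limma, edgeR or DESeq2, 0 had an unadjusted p under 0.05, and their median log2 fold change was -0.33. Over all genes tested, limma called 0.281%, edgeR 0.252% and DESeq2 1.16% as higher in CD8. An unadjusted limma p under 0.05 was seen for 5.82% in either direction, so counts of 0 are near these shares. The part of B cells in the Gcsam values was not tested.

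Ifi205 belongs to the PYHIN family of interferon-inducible proteins, some of which sense DNA. It had 211, 205 and 237 in CD8 389, 395 and 387 and 41.1 and 30.1 in CD4 385 and 393. CD4 395 had 0 reads, which allows a value of up to 3.19, the worth of 3 reads there, for counting error only. The log2 fold change was 4.32 (SE 1.29) and 2.59 without CD4 395. The family is a cluster of closely related genes, and how reads shared between them were assigned is not given in the sources used here. Of 10 other family members tested, 0 were called by limma, edgeR or DESeq2, beside 0.281%, 0.252% and 1.16% of all genes tested as higher in CD8. An unadjusted limma p under 0.05 was seen for 0 of them, beside 5.82% of all genes in either direction. These counts are near the shares of all genes. The log2 fold changes of these 10 ran from -0.26 to 0.69. Ifi211, the gene whose older names in RefSeq include Ifi205b, had 22.1 ± 5.37 (SD, n = 3) in CD8 and 27.9 ± 14.6 in CD4.

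The start windows were searched on both strands for 3 motifs of factors that act with BATF3 and IRF8. These were the AP-1 site TGANTCA, the interferon-stimulated response element (ISRE, GAAA repeated after a gap of 2 bases) and the ETS-IRF element (EICE, GGAA followed by GAAA after a gap of 2 bases). Of the 7 genes with a window, 0 held the AP-1 site, 0 the ETS-IRF element and 1, Ifi205, the ISRE, once on each strand with no overlap. Of all 27025 genes with a window, 8.97% held the AP-1 site, 3.16% the ETS-IRF element and 3.99% the ISRE. Matches are letters in a window and not sites of binding. The Ifi205 window (chr1:174031706-174032005, minus strand, GRCm38.p6) is shown 5′ to 3′ with the matches in capitals.
Ifi205: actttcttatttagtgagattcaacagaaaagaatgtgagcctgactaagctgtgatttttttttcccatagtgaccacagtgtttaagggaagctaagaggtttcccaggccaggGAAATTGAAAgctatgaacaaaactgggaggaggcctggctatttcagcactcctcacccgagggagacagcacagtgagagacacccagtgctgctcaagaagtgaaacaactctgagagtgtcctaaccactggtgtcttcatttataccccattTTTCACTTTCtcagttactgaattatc

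Per kilobase of merged exons in GENCODE M21, which need not be the annotation used for counting, Irf8 had the highest level of the 10 genes in both groups. In CD8 it had 300.3 ± 46.5 (SD, n = 3) normalised reads per kilobase, followed by Clec9a at 232 ± 33.4, Snx22 at 147 ± 20.0, Gm43914 at 130 ± 49.7 and Xcr1 at 109 ± 6.37. Rab7b followed at 84.1 ± 8.20, Batf3 at 66.9 ± 37.1, Gcsam at 54.6 ± 5.86, Ifi205 at 52.1 ± 4.18 and Cadm1 at 46.3 ± 7.58. The library ranges of neighbours in this order overlapped except between Clec9a and Snx22 and between Xcr1 and Rab7b. In CD4 the order was different: Irf8 (106 ± 57.4) was followed by Snx22 (40.4 ± 16.1), Batf3 (30.7 ± 21.3), Cadm1 (26.0 ± 14.5) and Clec9a (19.0 ± 13.0), and Xcr1 was last at 2.86 ± 1.05. All neighbours in the CD4 order overlapped in range.

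**Figure D2:**
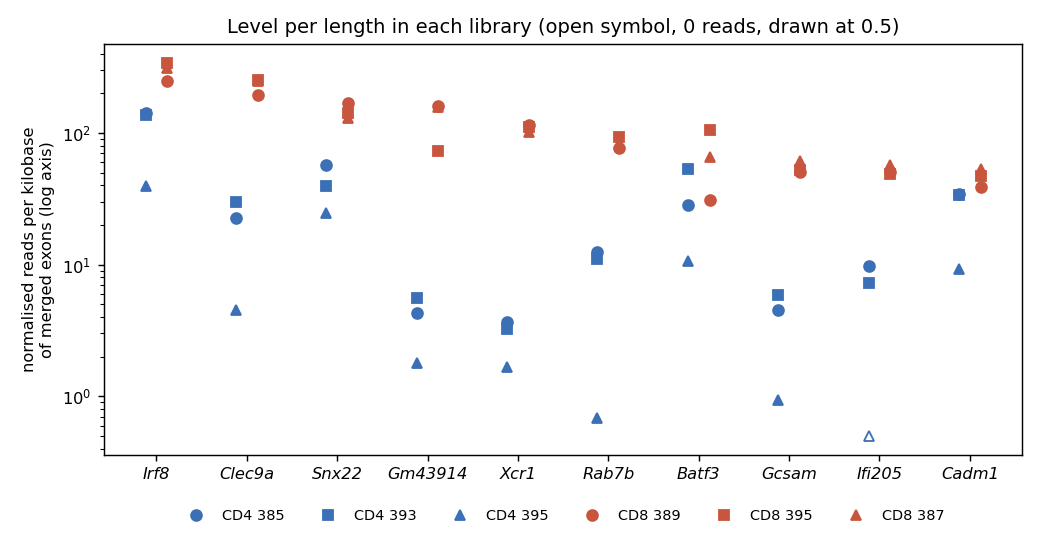
Normalised reads per kilobase of merged exons (vertical axis, log scale) of the 10 genes in each library, ordered by their CD8 mean. Xcr1 moves from the fifth place in CD8 to the last in CD4, and the open symbol marks Ifi205 in CD4 395 at 0 reads.

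The genes varied together across CD4 libraries. All 10 were lowest in CD4 395, where their summed value was 495, against 1776 in CD4 385 and 1736 in CD4 393. The decrease was not uniform: relative to the mean of CD4 385 and 393, CD4 395 was lower by 17.0-fold for Rab7b, 5.79-fold for Clec9a, 5.56-fold for Gcsam, 3.51-fold for Irf8, 2.06-fold for Xcr1 and 1.96-fold for Snx22. Of the highest library in sum, the 10 genes stood there at 8.75%, monocyte and neutrophil markers at 6.49%, MHC class II genes at 10.9%, macrophage markers at 18.1%, natural killer markers at 26.2% and cDC2 genes at 40.2%, and each of these lists was lowest in that library. T cell receptor genes stood at 80.3%. The part of these other cells in the CD4 values was not tested.

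The CD8 libraries were much closer to each other. The 10 genes summed to 4683, 5656 and 5420 in CD8 389, 395 and 387, which is 82.8%, 100% and 95.8% of the highest. CD8 389 had 21.8% of the highest macrophage sum and 23.1% of the highest T cell receptor sum. The sum of the 10 genes was thus less reduced there than either, but Irf8, at 1764, was its largest part. Not every gene followed the sum: Batf3 had 49.0 in CD8 389 against 167.3 in CD8 395. The cell source of these transcripts was not tested. Proliferation genes and erythroid markers were highest in CD8 389. It was the lowest CD8 library for 6 of the 10 genes and the highest for 3, namely Xcr1, Snx22 and Gm43914. Between the libraries that share the number 395, the CD8 value exceeded the CD4 value by 134-fold for Rab7b and 56.1-fold for Gcsam, which both rest on 3 reads in CD4 395, and by 40.4-fold for Gm43914, which rests on 1. It did so by 66.0-fold for Xcr1, 55.9-fold for Clec9a, 9.83-fold for Batf3, 8.62-fold for Irf8, 5.74-fold for Snx22 and 5.04-fold for Cadm1, with 1 library on each side and no test.

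**Figure D3:**
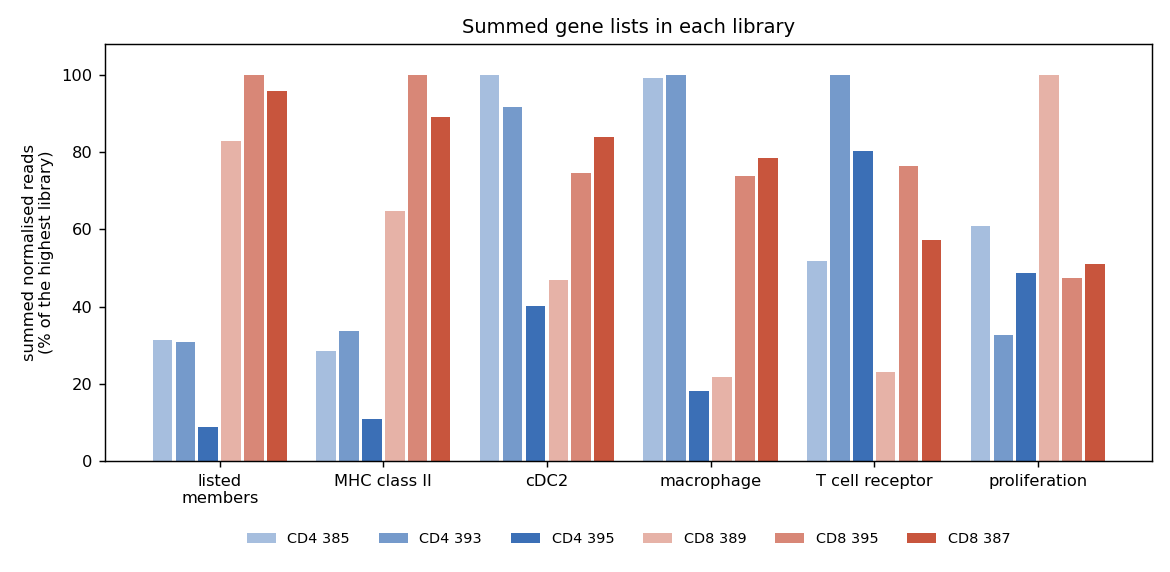
Summed normalised reads of 6 gene lists in each library, as a percentage of the highest library (vertical axis). The 10 listed genes reach 82.8% of their maximum in CD8 389, where macrophage markers stand at 21.8% and T cell receptor genes at 23.1%.

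Over all 13877 genes tested, limma called 0.281% as higher in CD8 and 0.209% as higher in CD4. Among the 10 genes, 3 passed this threshold, Xcr1, Gm43914 and Gcsam, all higher in CD8. Gm43914 reached the filter value in 0 CD4 libraries, so it entered the test through its CD8 libraries alone. It is also among the genes that edgeR and DESeq2 called. EdgeR, run on whole reads, called 3, beside 0.252% of all genes as higher in CD8, and DESeq2 called 7, beside 1.16%. The groups did not overlap for 9 of the 10, with CD8 higher, as for 4.93% of all genes tested, while 5.28% did not overlap with CD4 higher. The median log2 fold change was 4.00 for the 10 genes and 0.04 for all genes tested. Since the genes were chosen with this contrast known, these counts describe the choice and support nothing.

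**Figure D4:**
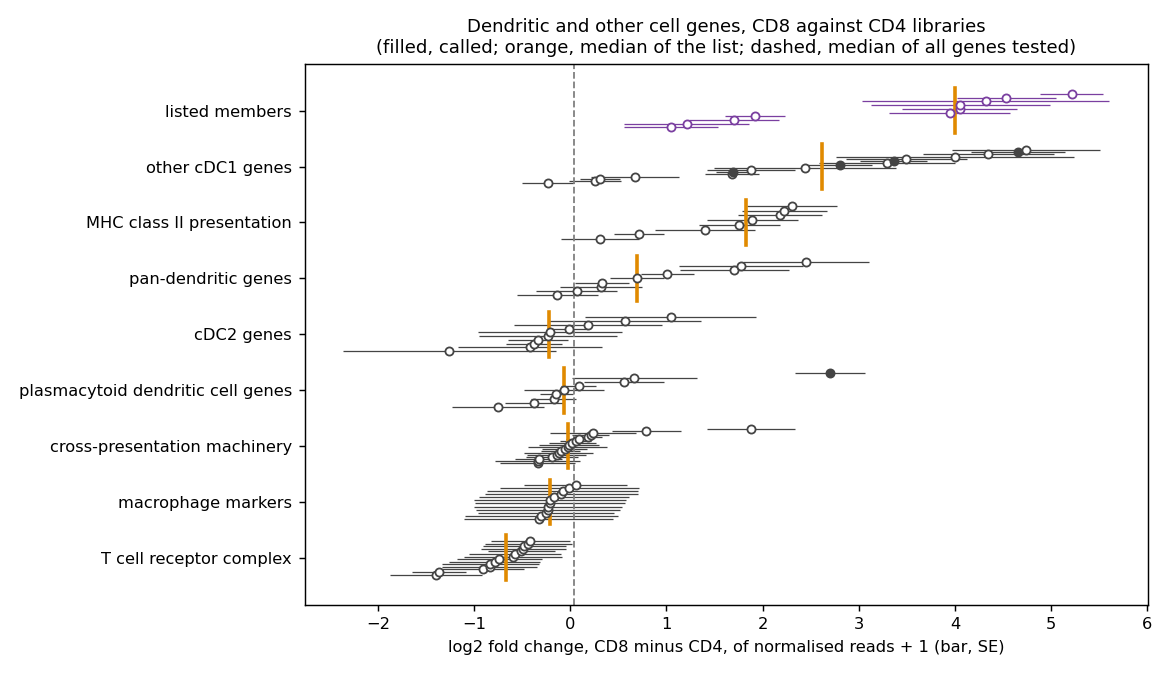
Log2 fold change of CD8 against CD4 (horizontal axis, with SE) for the 10 listed genes and the tested genes of 8 lists, each point being 1 gene. Filled points are called by limma (shown for the lists only), orange lines are list medians and the dashed line is the median of all genes tested, 0.04.

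Of 16 other genes reported in cDC1, all tested, 4 were called by limma, all higher in CD8, beside 0.281% of all genes tested. This list, like the others here, was chosen with earlier results of these same libraries known. Its counts and p-values are therefore a description and no independent support. Of the 16 point estimates, 15 lay above 0. The median log2 fold change was 2.62, beside 0.04 for all genes tested. Htr7, Fzd1 and Gpr33 reached the filter through CD8 libraries alone, and over the other 13 genes, of which 12 had an estimate above 0, the median was 1.88. Those 13 are not free of this selection. Tlr3, Tlr11, Septin3 and Clnk had 7.45, 6.38, 0 and 0 in CD4 395, so they too needed CD8 libraries to reach the filter. Tlr11, a sensor of microbial profilin, had 427, 347 and 471 in CD8 389, 395 and 387 and 22.3, 24.5 and 6.38 in CD4 385, 393 and 395, with a log2 fold change of 4.66 (SE 0.49) and a limma adjusted p = 0.0134. Itgae, the integrin chain CD103 that cDC1 share with some CD8 T cells, had 732 ± 145 (SD, n = 3) in CD8 and 74.0 ± 29.7 in CD4 (3.36, SE 0.35, limma adjusted p = 0.0134). Naaa, a lysosomal amidase, had 1577 ± 95.7 against 242 ± 101 (2.80, SE 0.33, limma adjusted p = 0.0187), and Ppt1, a lysosomal thioesterase, 3181 ± 189 against 997 ± 178 (1.69, SE 0.17, limma adjusted p = 0.0128). EdgeR called 4 genes of this list, beside 0.252% of all genes tested as higher in CD8. DESeq2 called 10, or 7 of the 13, beside 1.16%. Without CD8 395 or without CD8 387 limma called 0, with 13 of the 16 genes tested.

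Several genes of that list did not pass although their groups did not overlap. Non-overlapping groups with CD8 higher were seen for 12 of the 16, or 9 of the 13, beside 4.93% of all genes tested. Tlr3, an endosomal receptor for double-stranded RNA, had 291 ± 32.7 (SD, n = 3) in CD8 and 39.7 ± 30.5 in CD4, with a log2 fold change of 3.29 (SE 0.71) and a limma adjusted p = 0.145. Wdfy4, which cDC1 need to cross-present cell-associated antigen in mice, had 3022 ± 550 against 931 ± 496 (1.88, SE 0.46, limma adjusted p = 0.210). At lower levels, Fzd1 had 57.9 ± 2.39 against 2.63 ± 2.33 and Htr7 48.3 ± 9.61 against 1.71 ± 2.97. Btla (1072 ± 170 in CD8 and 1302 ± 456 in CD4), Ly75 (676 ± 181 and 564 ± 144), Plekha5 (478 ± 66.5 and 389 ± 79.5) and Cd24a (12484 ± 6090 and 8005 ± 3887), which other spleen cells express too, overlapped between the groups.

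Of 8 tested MHC class II genes, 0 were called by limma or edgeR and 5 by DESeq2, and 7 had an unadjusted limma p under 0.05, all higher in CD8. Over all genes tested, DESeq2 called 1.16% as higher in CD8, and 5.82% had an unadjusted limma p under 0.05 in either direction. The median log2 fold change of the class II genes was 1.82. Ciita, the master regulator of the class II genes, had 760 ± 139 (SD, n = 3) in CD8 and 234 ± 127 in CD4, and H2-Ab1 had 5923 ± 1320 against 1411 ± 758 (log2 fold change 2.23, SE 0.44, limma adjusted p = 0.107). Of 9 tested pan-dendritic genes 0 were called by limma or edgeR and 1 by DESeq2, and 5 had an unadjusted p under 0.05. Flt3, the receptor whose ligand drives dendritic cell development, had 642 ± 36.4 in CD8 and 154 ± 104 in CD4 (2.45, SE 0.66, limma adjusted p = 0.285). Zbtb46, a transcription factor of conventional dendritic cells that erythroid progenitors express too, had 678 ± 124 and 433 ± 150, and Itgax, the chain CD11c, 888 ± 170 and 335 ± 227.

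The lists for the other dendritic cell types gave 1 call in all. Of 10 tested cDC2 genes 0 were called by limma, edgeR or DESeq2 and 0 had an unadjusted p under 0.05, and the median log2 fold change was -0.22. Over all genes tested, limma called 0.281%, edgeR 0.252% and DESeq2 1.16% as higher in CD8. An unadjusted limma p under 0.05 was seen for 5.82% in either direction. A count of 0 in 10 is near these shares and is no result about the list. Clec4a4, the lectin DCIR2 of splenic cDC2, was low in both groups, at 5.44 ± 5.24 (SD, n = 3) in CD8 and 12.6 ± 9.67 in CD4, and Esam, an adhesion molecule of that subset, had 32.5 ± 18.1 and 25.2 ± 18.3. Sirpa, which macrophages express too, had 1826 ± 1016 and 2294 ± 1475. In the plasmacytoid list 1 of 9 tested genes was called, Ccr9, a gut-homing receptor that T cells carry too, and Siglech, the defining marker of that type, had 21.0 ± 11.0 in CD8 and 12.8 ± 7.20 in CD4. Ccr9 had 353, 769 and 965 in CD8 389, 395 and 387 and between 87.3 and 110.3 in CD4, 7.09-fold higher in the mean (limma adjusted p = 0.0295). It was lowest of the CD8 group in CD8 389, where Xcr1 was highest. It was not called by limma without a trend or without any 1 of CD4 385, CD4 393, CD4 395, CD8 395 and CD8 387, with adjusted p between 1.4e-10 and 0.193 over all alternatives.

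The machinery of cross-presentation, which most cells share, had a median difference near that of all genes. Of 18 tested genes, 0 were called by limma or edgeR and 1 by DESeq2, beside 1.16% of all genes tested as higher in CD8. An unadjusted limma p under 0.05 was seen for 1, beside 5.82% of all genes. The median log2 fold change of the 18 was -0.02. Apart from Wdfy4, described above, the log2 fold changes ran from -0.34 to 0.79. Tap1, a chain of the peptide transporter into the endoplasmic reticulum, had 3181 ± 965 (SD, n = 3) in CD8 and 3553 ± 750 in CD4, and Sec22b, a SNARE protein of traffic to phagosomes, 721 ± 45.5 and 637 ± 57.8. Rab43, a GTPase tied to cross-presentation by cDC1 in mice, had 111 ± 31.8 and 64.3 ± 23.0 (0.79, SE 0.36, limma adjusted p = 0.918).

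Of the partners of cDC1 receptors and their cytokines, 9 tested genes reached the filter value in at least 1 CD4 library. Xcl1, Cxcl9, Il15 and Ccl4 fell below it in CD4 395, so they too needed CD8 libraries to enter the test. Among the 9, 0 were called by limma or edgeR and 1 by DESeq2, beside 1.16% of all genes tested as higher in CD8. Of the 9, 3 had an unadjusted limma p under 0.05, beside 5.82% of all genes in either direction. The remaining gene, Il12b, entered the test through its CD8 libraries alone, so no test of it is given. Il12b, the interleukin 12 subunit by which cDC1 promote type 1 responses, had 70.3, 38.4 and 49.5 in CD8 389, 395 and 387 and 4.28, 2.23 and 0 in CD4 385, 393 and 395. The groups did not overlap, and like Xcr1 it was highest in CD8 389. Xcl1, the ligand of Xcr1, had 53.5 ± 34.9 (SD, n = 3) in CD8 and 17.4 ± 14.9 in CD4. Crtam, the partner of Cadm1, had 316 ± 181 and 105 ± 49.5, and both were lowest of the CD8 group in CD8 389, as were the T cell receptor genes. Flt3l, the ligand of Flt3, had 669 ± 251 in CD8 and 1011 ± 297 in CD4.

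The genes most like the 10 in pattern were found by Pearson's r over the 6 libraries between log2(value + 1) and the mean standardised profile of the 10, among genes with a mean of at least 50. The highest were H2-Aa (r = 0.998), Dnase1l3 (0.998), Havcr2 (0.997), Olfm1 (0.997), Tlr3 (0.996), Prr5l (0.995), Adam8 (0.994), Mycl (0.994), H2-Eb1 (0.992) and Gm36723 (0.992). The values of r are a description over 6 points that fall into 2 groups and share library scaling, so they carry no test. Mycl, a MYC family factor that cDC1 express in mice, had 241, 345 and 304 in CD8 389, 395 and 387 and 33.4, 25.6 and 4.26 in CD4 385, 393 and 395. Havcr2, the receptor TIM-3, had CD8 values of 345, 353 and 387 and CD4 values of 76.2, 64.6 and 10.6, in the same library order, and Dnase1l3, a secreted nuclease, had 1167, 1765 and 1592 against 385, 388 and 78.7. All 3 were lowest in CD4 395, as is the profile by which they were chosen, so this adds no support. Of the 10 genes themselves, Clec9a and Rab7b had the highest r with the mean profile of the other 9, 0.995 each, and Batf3 the lowest, 0.788.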

How the data were processed

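RNA-seq of 3 CD4 and 3 CD8 libraries was compared, grouped by sample title. The values deposited are a signal, namely reads per gene divided by the size factor of the library, as the authors' table holds them. The submitters' processing notes list STAR 2.7.5c, featureCounts 2.0, DESeq2 and the build GRCm39 without roles. Annotation, strand setting and filters were not given in the sources used here. In each library 100% of values were multiples of 1 read to within 0.001 reads, so whole reads were recovered. No gene had fewer than 11 reads in all.

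The test was limma 3.58.1 (R 4.3.3) using log2(value + 1) and a trended prior variance. It covered 13877 genes that reached 10 in 3 or more libraries, was two-sided and adjusted over all of them (Benjamini-Hochberg), and a call needed 0.05. Differences are CD8 minus CD4 on this scale. It compresses values near 0 but averages logs, so 1 very low library can also raise them: Ifi205 had 4.32, against 3.16 by edgeR. On recovered reads, edgeR 4.0.16 (quasi-likelihood) and DESeq2 1.42.0 were alternatives, beside other pseudocounts, filters, scalings and weights and leaving out each library. The scripts were tested on simulated data.

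The members, the 20 lists (206 genes, 195 in the table and 188 tested) and the tests were chosen with earlier results of these data known. Named by rule were all members, called list genes, up to 3 abundant and the defining genes of a list, and the 10 most similar genes of mean 50 or more. Other list genes given with values, such as Junb, Rab43 and Il12b, were chosen after their values were seen, and not every abundant gene is described. Start windows, exon overlaps and lengths came from RefSeq and GENCODE M21, both on GRCm38.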

Additional observations from a re-analysis of the deposited data

How the results depend on the processing

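For each of the 10 cDC1 genes the log2 fold change stayed above 0 under every alternative that could test it. It ran from 4.83 to 5.86 for Xcr1, 3.13 to 4.67 for Clec9a, 3.42 to 5.08 for Gm43914, 3.33 to 4.74 for Gcsam, 2.82 to 4.97 for Rab7b, 2.59 to 5.69 for Ifi205, 1.50 to 2.60 for Snx22, 1.10 to 2.38 for Irf8, 0.61 to 1.87 for Batf3 and 0.42 to 1.72 for Cadm1. The count of genes called higher in CD8, 39, became 64 with a pseudocount of 5, 62 with no filter, 96 with the T cell receptor list as scale, 228 with library weights and 161 by DESeq2, and ran from 3 to 40 when 1 library was left out. The count called lower, 29, became 16 with a filter at 50, 17 with the T cell receptor list as scale, 135 with library weights, 158 by DESeq2 and 14 without both CD4 395 and CD8 389, and ran from 4 to 17 when 1 library was left out. Of the 16 other cDC1 genes, 4 were called, and 7 with a pseudocount of 5, 7 on that scale, 11 with library weights and 10 by DESeq2, against 0 to 6 with 1 library left out. Without both CD4 395 and CD8 389, the libraries lowest in macrophage markers and left out after the data were seen, 5 were called of 13 tested. The counts over all 16 genes include Htr7, Fzd1 and Gpr33, which reached the filter through CD8 libraries alone. Among the other 13 genes limma called 4 and DESeq2 7, but Tlr3, Tlr11, Septin3 and Clnk of these also needed CD8 libraries to reach the filter. The T cell receptor list as scale moved the median of all genes by 0.67. Btla turned from -0.23 to 0.45 on that scale, and ran from -0.49 to 0.025 with 1 library left out. Sirpa turned from -0.21 to 0.47 on that scale, 0.88 with library weights and, with 1 library left out, to between -1.01 and 0.41, and Clec4a4 turned from -1.26 to 0.019 with library weights. The cause of these shifts was not tested. With 1 library left out, the filter of 3 libraries also removes genes from the test. No paired analysis was possible because the groups share only the number 395. Read counts of 7 or fewer in CD4 limit Gm43914, and those of 0 to 3 in CD4 395 limit Ifi205, Rab7b and Gcsam.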
